A study of Mus musculus with 15 samples.

Results

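The Sox genes encode transcription factors that bind DNA through an HMG box, and 10 of them were followed across sorted mouse brain cells: Sox1, Sox2 and Sox3 (subgroup SoxB1), Sox21 (SoxB2), Sox4 and Sox11 (SoxC), Sox5 and Sox6 (SoxD), and Sox8 and Sox9 (SoxE). The members were taken by symbol, as 10 of the 32735 usable entries of the count table and 10 of its 19 Sox symbols. Cells came from male and female hGFAP::GFP mice, pooled, in which a human GFAP promoter drives a GFP reporter; no age is given in the sources used here. All 5 groups were sorted as GFP-positive cells, 4 of them from the ventricular-subventricular zone (V-SVZ), the stem cell niche lining the lateral ventricles, and the other, CTX, from the cortex as astrocytes. The V-SVZ groups were all sorted as CD24-negative. GPB+ cells were positive for PDGFRβ and negative for CD133 and EGFR. GCPB+ cells were positive for PDGFRβ and CD133 and negative for EGFR. GCEPB+ cells were positive for PDGFRβ, CD133 and EGFR, and GCEPB- cells were positive for CD133 and EGFR and negative for PDGFRβ. Each group had 3 libraries, 15 in all.

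SoxB1 proteins keep neural progenitors undifferentiated, and Sox21 is known to oppose them. Sox9 is needed for neural stem cells and is a marker of astrocytes, Sox8 is its close relative, and the SoxC proteins Sox4 and Sox11 act when progenitors become neurons. Sox5 and Sox6 have no activation domain of their own and modify the output of other Sox proteins. Many Sox proteins bind the same short DNA core and gain selectivity from partner factors, so the balance between subgroups in a cell is a common way to describe the family.

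Depth and sorting were checked first. Libraries held 12431567 to 33592810 counts, and levels below are CPM, counts scaled to each library's normalised total, as mean ± SD over 3 libraries unless given per library. The RNA of the sorted surface genes followed the gates in part. Egfr was at 537 CPM ± 75.1 in GCEPB+ and 797 ± 48.2 in GCEPB- against 155 to 171 in the other groups. Pdgfrb was lowest in GCEPB- at 2.37 ± 1.06, but in the PDGFRβ-positive GCEPB+ it was at 45.9 ± 18.2 against 342 ± 65.8 in GCPB+ and 183 ± 53.3 in CTX. Prom1, which encodes CD133, was at 28.4 ± 5.48 in GPB+ and 153 ± 24.6 in GCPB+, but the CD133-positive GCEPB+ and GCEPB- had 66.8 ± 25.1 and 48.8 ± 7.34, beside 56.0 ± 18.9 in CTX. CTX, labelled as astrocytes, expressed the astrocyte markers, with sums over 14 genes of 58944 to 74459 CPM, and GPB+ and GCPB+ had sums of 64231 to 76544 and 77077 to 88782. In bulk RNA of sorted cells, fewer expressing cells and less RNA per cell cannot be told apart.

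From GCPB+ to either EGFR-positive group, the SoxC genes had the largest fold changes of the 10 members. Sox4 and Sox11, which promote neuronal differentiation, were low in the 3 EGFR-negative groups and rose in both EGFR-positive groups, and per transcript length Sox11 passed Sox9 in GCEPB-. Sox4 read 6.51, 4.30 and 5.19 CPM in CTX, 3.16, 2.09 and 1.94 in the GPB+ libraries, 2.54, 1.23 and 1.63 in those of GCPB+, 50.7, 35.2 and 27.9 in GCEPB+, and 90.8, 93.1 and 69.5 in GCEPB-. No library of an EGFR-positive group overlapped the EGFR-negative groups, and every GCEPB- library was above every GCEPB+ library. The log2 fold change from GCPB+ to GCEPB+ was 4.36 ± 0.34 (SE), 20.6-fold, with an edgeR adjusted p of 1.11e-07.

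Sox11 read 7.30, 2.53 and 10.5 CPM in CTX, 35.2, 16.9 and 21.1 in the GPB+ libraries, 22.7, 10.8 and 11.7 in those of GCPB+, 363, 226 and 205 in GCEPB+, and 716, 555 and 582 in GCEPB-. The lowest EGFR-positive library stood well above the highest EGFR-negative library, at 205 against 35.2 CPM. The log2 fold change from GCPB+ to GCEPB+ was 4.12 ± 0.44, 17.4-fold, with an edgeR adjusted p of 2.01e-06, and from GCPB+ to GCEPB- it was 5.35 ± 0.46, 40.7-fold, with 6.33e-08.

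Between the EGFR-positive groups the SoxC genes had similar estimates on either side of the threshold. Sox4 rose from GCEPB+ to GCEPB- by a log2 fold change of 1.15 ± 0.29, with an edgeR adjusted p of 0.0139. Leaving out a library ended this call in 4 of 6 cases, GCEPB+ library 2 or 3 and GCEPB- library 1 or 2, with adjusted p-values up to 0.0762. Sox11 had a log2 fold change of 1.22 ± 0.39 there with an edgeR adjusted p of 0.0528, just outside the threshold of 0.05, and its groups did not overlap. In 7 alternative settings with all libraries and no block, Sox11 did pass, with adjusted p-values of 0.00484 to 0.0462 and log2 fold changes of 1.22 to 1.25.

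Among the EGFR-negative groups the SoxC genes took different orders. Sox4 was higher in CTX than in GPB+, which fell by 1.15 ± 0.32 on the log2 scale with an edgeR adjusted p of 0.0382, and than in GCPB+, which fell by 1.53 ± 0.32 with 0.00730. Sox11 was lowest in CTX, and GPB+ was higher by a log2 fold change of 1.82 ± 0.41 with an edgeR adjusted p of 0.0129. These calls sit near the threshold. The adjusted p for Sox11 was 0.0564 without GPB+ library 1 and 0.0793 by limma on unfiltered FPKM. The fall of Sox4 in GPB+ lost its call without CTX library 1 or 3 or GPB+ library 2 or 3 (up to 0.144), when those groups were fitted alone (0.181) and by limma on log2(FPKM + 1) with and without a filter on low values (0.0900 and 0.126). Its fall in GCPB+ lost its call when those groups were fitted alone (0.0525) and by limma on unfiltered FPKM (0.0726). For GCPB+ against CTX, Sox11 had a log2 fold change of 1.14 with an edgeR adjusted p of 0.116. With the library number as a block, it was 1.10 with an edgeR adjusted p of 0.0400. That pairing was taken from the data and is not given by a label.

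**Figure D1:**
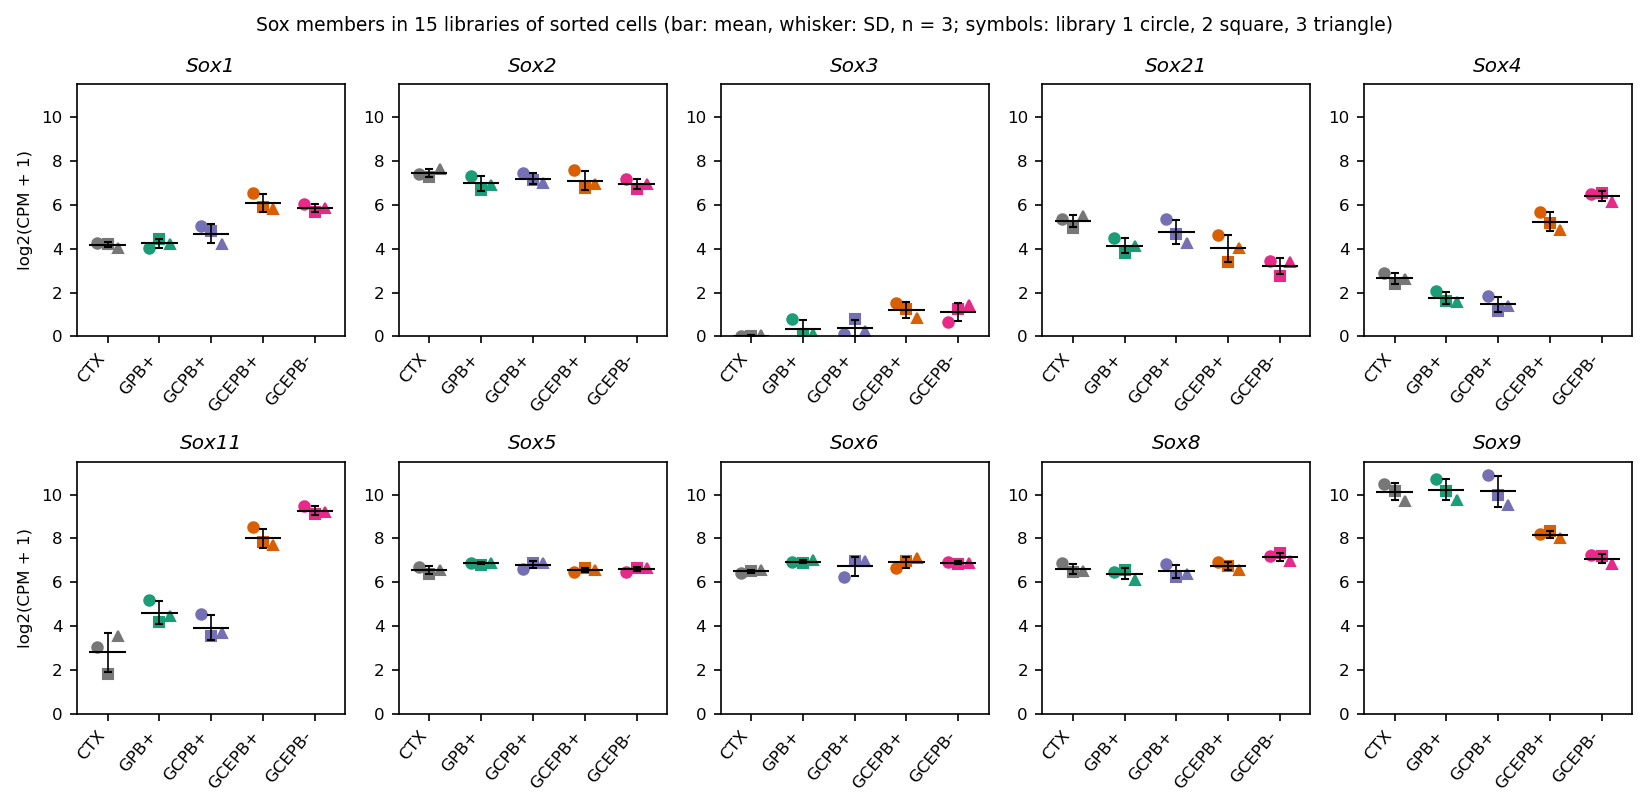
Levels of the 10 Sox genes in each of the 15 libraries, as log2(CPM + 1), by sorted group; points are libraries, bars the mean and whiskers the SD (n = 3). Sox4 and Sox11 are highest in GCEPB+ and GCEPB- (38.0 and 84.5 CPM, and 265 and 618 CPM), Sox9 is low there (289 and 135 CPM), and the group means of Sox5 span 93.3 to 115 CPM.

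The start regions of the genes that rose in both EGFR-positive groups are shown because Sox4 and Sox11 changed together and Sox1 with them. The sequences are RefSeq promoters on build GRCm38.p6, from 250 bases before the annotated start to 50 after it, read on the gene's strand, with base 251 as the start; 8 of the 10 members had an entry in that table, Sox3 and Sox9 being the others. Capitals mark CCAAT and its reverse complement ATTGG, the letters of the CCAAT box. The Sox4 window lies at chr13:28953650-28953949 (minus strand), the Sox11 window at chr12:27342669-27342968 (minus strand) and the Sox1 window at chr8:12395269-12395568 (plus strand).
Sox4: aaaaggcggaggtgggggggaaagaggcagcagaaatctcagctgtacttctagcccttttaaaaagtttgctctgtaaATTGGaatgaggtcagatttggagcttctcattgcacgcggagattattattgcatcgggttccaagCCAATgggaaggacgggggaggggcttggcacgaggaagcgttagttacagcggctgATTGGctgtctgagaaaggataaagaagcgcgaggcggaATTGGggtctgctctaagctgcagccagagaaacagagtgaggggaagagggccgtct
Sox11: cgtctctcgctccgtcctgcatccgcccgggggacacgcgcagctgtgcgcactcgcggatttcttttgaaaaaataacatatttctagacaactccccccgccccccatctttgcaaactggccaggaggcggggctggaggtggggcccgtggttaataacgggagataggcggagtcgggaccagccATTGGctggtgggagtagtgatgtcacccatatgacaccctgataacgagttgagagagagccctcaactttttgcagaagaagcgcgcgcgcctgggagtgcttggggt
Sox1: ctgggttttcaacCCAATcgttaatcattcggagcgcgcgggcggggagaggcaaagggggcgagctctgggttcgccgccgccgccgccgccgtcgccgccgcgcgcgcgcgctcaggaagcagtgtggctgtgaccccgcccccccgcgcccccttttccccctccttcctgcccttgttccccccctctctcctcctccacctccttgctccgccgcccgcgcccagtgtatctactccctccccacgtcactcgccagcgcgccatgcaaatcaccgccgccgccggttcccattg
The Sox4 window held 4 matches, which begin at -171, -104, -47 and -8 bases from the start. Sox11 held 1 match at -60 and Sox1 held 1 match at -237. Sox2, which was not called in any pair, held 1 match at -46, and Sox6, also not called, held matches in some of its windows. Sox8, which rose in GCEPB-, and Sox21 held 0. Of all 32851 promoters in the table, 37.4% held the motif on either strand. The core Sox motif, ACAAT or its reverse complement ATTGT, was not in these 3 windows and was in 31.0% of all promoters. The GC box, GGGCGG or CCGCCC, occurred 2 times in the Sox11 window, 3 times in the Sox1 window and 0 times in the Sox4 window, and in 35.7% of all promoters. These matches are letters in a window, and no binding was measured.

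The SoxE genes moved apart from each other. Sox9, which neural stem cells need and astrocytes keep, fell strongly in the EGFR-positive groups. The first of 2 deposited entries of Sox8, meant by Sox8 unless stated, was not called lower in any comparison. Sox9 read 1433, 1145 and 840.0 CPM in CTX, 1694, 1133 and 872 in the GPB+ libraries, 1932, 1026 and 733 in those of GCPB+, 295, 318 and 255 in GCEPB+, and 149.6, 144 and 113 in GCEPB-. The EGFR-negative groups overlapped one another across a wide range, and the EGFR-positive groups lay below all of them and did not overlap each other. The log2 fold change from GCPB+ to GCEPB+ was -2.09 ± 0.32, with an edgeR adjusted p of 6.90e-05, and from GCPB+ to GCEPB- it was -3.18 ± 0.33, with 5.26e-07. Between GCEPB+ and GCEPB- the change was -1.09 ± 0.31 with an edgeR adjusted p of 0.0281. That last call was lost in 5 of 6 fits without a library, the exception being GCEPB+ library 3, with adjusted p-values up to 0.115. It was also lost on the FPKM scale (0.0675 to 0.156) and without the first library of both EGFR-positive groups (0.0916).

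Sox8 read 116, 87.6 and 89.0 CPM in CTX, 87.1, 94.3 and 67.3 in the GPB+ libraries, 112, 75.5 and 83.3 in those of GCPB+, 119.8, 107 and 91.9 in GCEPB+, and 147, 158 and 124 in GCEPB-. GCEPB- was highest and did not overlap any other group, and the other 4 groups overlapped one another. From GCPB+ to GCEPB- Sox8 rose by a log2 fold change of 0.66 ± 0.20, with an edgeR adjusted p of 0.0110, which became 0.0615 without GCPB+ library 2. From GPB+ to GCEPB- it rose with an edgeR adjusted p of 0.00350. Against CTX the adjusted p was 0.0283, but this call was lost in 4 of 6 fits without a library and when the 2 deposited entries of Sox8 were summed (0.255).

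Those entries carry the same symbol at different lengths. The first covers chr17:25565893-25570686 on mm10 and the second, shorter and inside it, chr17:25568690-25570686, sharing the upstream end. Counts of the second were 28.9% ± 11.7 (SD, n = 3) of the first in CTX, 23.9% ± 10.9 in GPB+ and 16.1% ± 3.15 in GCPB+, and 7.90% ± 2.12 in GCEPB+ and 4.86% ± 0.437 in GCEPB-. No EGFR-positive library reached the lowest EGFR-negative one, at most 10.3% against at least 12.6%. From GCPB+ to GCEPB- the second entry fell by a log2 fold change of 1.07 ± 0.36 with an edgeR adjusted p of 0.0191, opposite in direction to the first, although leaving out a library ended this call in 3 of 6 cases (up to 0.0788). From GPB+ to GCEPB- it fell with an edgeR adjusted p of 0.00306, and no left-out library ended that call. Against CTX the second entry was lower in GCEPB- by 1.97 ± 0.36, with an edgeR adjusted p of 0.000217. In GCEPB+ it was lower than in CTX by 1.70 ± 0.36 with 0.00106, and lower than in GPB+ with 0.0158. How reads that fit both entries were assigned was not given in the sources used here.

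Ratios within a library set Sox11 against Sox9 without a comparison of libraries, but they depend on the transcript lengths used for FPKM. Sox11 FPKM (a level per transcript length and library size) was 0.243%, 0.128% and 0.645% of Sox9 FPKM in CTX, 0.935%, 0.782% and 1.26% in GPB+ libraries and 0.554%, 0.573% and 0.897% in GCPB+. It was 58.8%, 34.6% and 38.9% in GCEPB+, and 225%, 176% and 245% in GCEPB-. By FPKM, Sox11 was thus below Sox9 in all 12 libraries of the first 4 groups and above it in the 3 GCEPB- libraries. In counts, Sox11 was above Sox9 in GCEPB+ library 1 as well (8977 against 7312), but not in GCEPB+ libraries 2 and 3. Sox9 FPKM was 7.43 ± 2.88 times Sox8 FPKM in GCPB+, 1.65 ± 0.145 times in GCEPB+ and 0.585 ± 0.0496 times in GCEPB-. By FPKM the order of the SoxE genes also turned in GCEPB-. In counts, Sox9 was still just above Sox8 in GCEPB- library 1 (3386 against 3333) and below it in libraries 2 and 3.

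**Figure D2:**
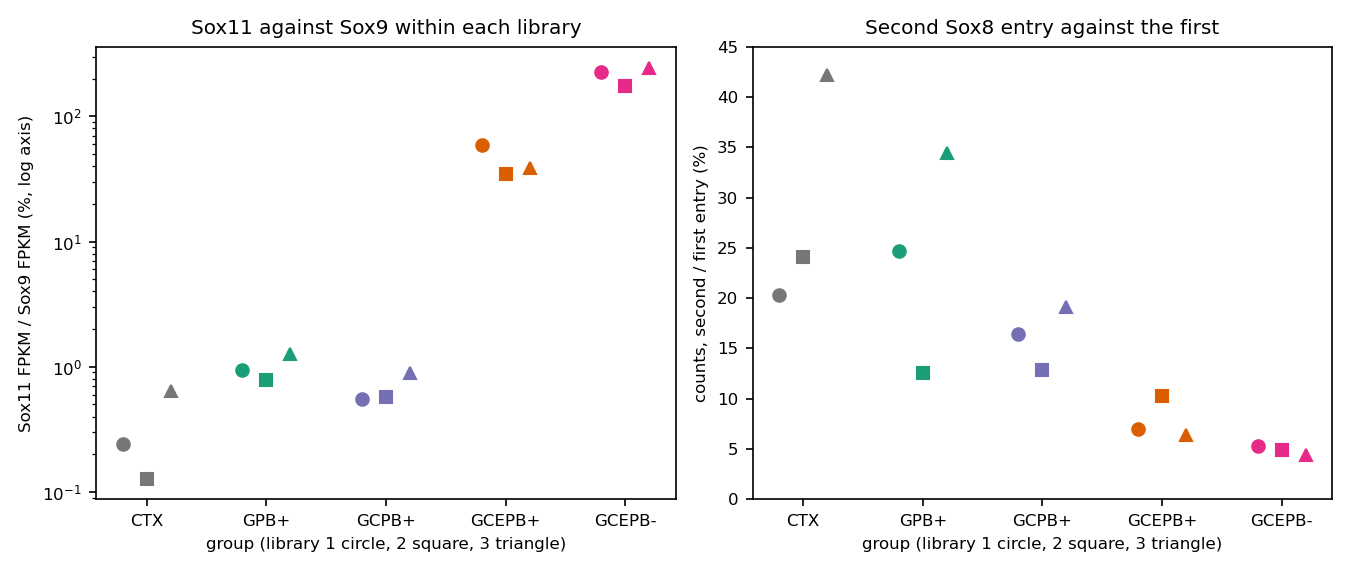
Left, Sox11 FPKM as a percent of Sox9 FPKM in each library (log axis); right, counts of the second Sox8 entry as a percent of the first. Each point is a library (circle 1, square 2, triangle 3): the left ratio passes 100% in the GCEPB- libraries alone (176% to 245%), and the right ratio is lowest there (4.41% to 5.28%).

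The SoxB1 genes did not move as a block. Sox1 rose in the EGFR-positive groups, Sox2 was not called in any pair of groups, and Sox3 had few counts, with 13 to 47 in EGFR-positive libraries and 15 or fewer in the others. Sox1 read 18.0, 17.9 and 15.5 CPM in CTX, 15.6, 21.1 and 17.5 in the GPB+ libraries, 31.7, 27.3 and 17.8 in those of GCPB+, 92.9, 58.2 and 55.5 in GCEPB+, and 65.8, 49.7 and 57.0 in GCEPB-. The EGFR-positive libraries all lay above the EGFR-negative ones, and GCEPB+ and GCEPB- overlapped. The log2 fold change from GCPB+ to GCEPB+ was 1.43 ± 0.25, 2.69-fold, with an edgeR adjusted p of 0.000308, and from GCPB+ to GCEPB- it was 1.17 ± 0.25 with 0.000993. From GCEPB+ to GCEPB- it was -0.26 ± 0.25 with an edgeR adjusted p of 0.603, so Sox1, unlike Sox4, was not called between the EGFR-positive groups; the difference between these genes was not tested.

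Sox2, the SoxB1 gene most used to mark neural stem cells, read 171, 155 and 199.7 CPM in CTX, 161, 102 and 121 in the GPB+ libraries, 176, 142 and 126 in those of GCPB+, 191, 109 and 125 in GCEPB+, and 143, 106 and 122 in GCEPB-. All neighbouring groups in its order of means overlapped, and none of the 10 pairs of groups passed the test. GCEPB- lay below CTX without overlap, with an edgeR adjusted p of 0.0755. From GCPB+ to GCEPB+ its log2 fold change was -0.06 ± 0.23 with an edgeR adjusted p of 0.872, and on the FPKM scale it was 0.20, a change of sign. The median of all genes in that comparison was 0.11 in edgeR and, by limma with a pseudocount of 1, 0.27 with a filter on low values and 0.05 without it. Sox2 lies inside the noncoding gene Sox2ot on chromosome 3, and the library kit does not mark strand, so reads of the pair cannot be told apart where they overlap.

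Sox3, on the X chromosome, was counted 1 time in the summed CTX libraries, 18 times in GPB+ and 17 times in GCPB+, and 91 and 76 times in GCEPB+ and GCEPB-. GCEPB+ libraries held 47, 29 and 15 counts and GCEPB- libraries 13, 21 and 42, against 15, 1 and 2 in GPB+ and 2, 9 and 6 in GCPB+. Relative to the raw totals the ratio to CTX was 89.2 for GCEPB+, with a 95% counting interval of 15.6 to 3561, and 77.9 for GCEPB-, with 13.6 to 3116; these intervals cover counting error only. Sox3 passed the count filter only through the EGFR-positive groups, where it is high, so its calls against CTX support nothing. Against GCPB+ the edgeR adjusted p was 0.137 for GCEPB+ and 0.144 for GCEPB-, so at this depth no difference between the EGFR-positive groups and GCPB+ was detectable by this test; limma on unfiltered FPKM gave 0.00483 and 0.00404.

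Sox21, the SoxB2 gene that opposes SoxB1 activity, fell from GCPB+ to GCEPB-, where Sox1 rose. From GPB+ to GCEPB+, where Sox1 also rose, Sox21 had a log2 fold change of -0.06 ± 0.36 with an edgeR adjusted p of 0.922. It read 39.6, 30.2 and 44.5 CPM in CTX, 21.5, 13.1 and 16.2 in the GPB+ libraries, 39.5, 24.9 and 18.0 in those of GCPB+, 23.9, 9.61 and 15.4 in GCEPB+, and 9.72, 5.81 and 9.66 in GCEPB-. CTX was highest in the mean and GCEPB- lowest, with overlap between all neighbours in that order. GCEPB- overlapped no EGFR-negative group, and CTX overlapped neither GPB+ nor GCEPB+. Against CTX Sox21 was lower in GCEPB- by 2.18 ± 0.37, with an edgeR adjusted p of 0.000103. In GCEPB+ it was lower than in CTX by 1.22 ± 0.36 with 0.0110, a call lost in 1 of 6 fits without a library. From GCPB+ to GCEPB- it fell by a log2 fold change of 1.70 ± 0.37, with an edgeR adjusted p of 0.000936. From GCPB+ to GCEPB+ the change was -0.75 ± 0.36 with an edgeR adjusted p of 0.113. With the library number as a block, since these libraries paired by number, it was -0.80 with 0.0285, and without GCEPB+ library 1 it passed as well. For GPB+ against CTX the change was -1.17 ± 0.36 with an edgeR adjusted p of 0.0617.

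The SoxD genes, which modify the output of other Sox proteins, had the smallest ratios of highest to lowest group mean among the 10 members, with means of 93.3 to 115 CPM for Sox5 and 90.2 to 122 for Sox6. Sox5 read 104, 82.5 and 94.2 CPM in CTX, 118, 110.5 and 118 in the GPB+ libraries, 97.2, 118 and 117 in those of GCPB+, 88.5, 99.2 and 92.1 in GCEPB+, and 88.5, 98.5 and 100.1 in GCEPB-. Sox6 read 85.5, 91.7 and 93.5 in CTX, 119.6, 118 and 127 in the GPB+ libraries, 74.0, 123 and 125 in those of GCPB+, 98.6, 126 and 135 in GCEPB+, and 122, 112 and 118 in GCEPB-. Groups next to each other in the order of means overlapped for both genes, but some groups further apart did not. For Sox5, GPB+ lay above CTX, GCEPB+ and GCEPB- without overlap. For Sox6, CTX lay below GPB+, GCEPB+ and GCEPB- without overlap. No pair of groups passed the test for either gene. From GCPB+ to GCEPB+ the log2 fold change was -0.24 ± 0.15 for Sox5 and 0.16 ± 0.19 for Sox6, with edgeR adjusted p-values of 0.231 and 0.549. By limma on log2(FPKM + 1) Sox6 had 0.45 with an adjusted p of 0.0481, and of 0.0477 without a filter on low values. Both limma fits share that fold change. The median of all genes was 0.27 with the filter and 0.05 without it, beside 0.11 in edgeR.

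**Figure D3:**
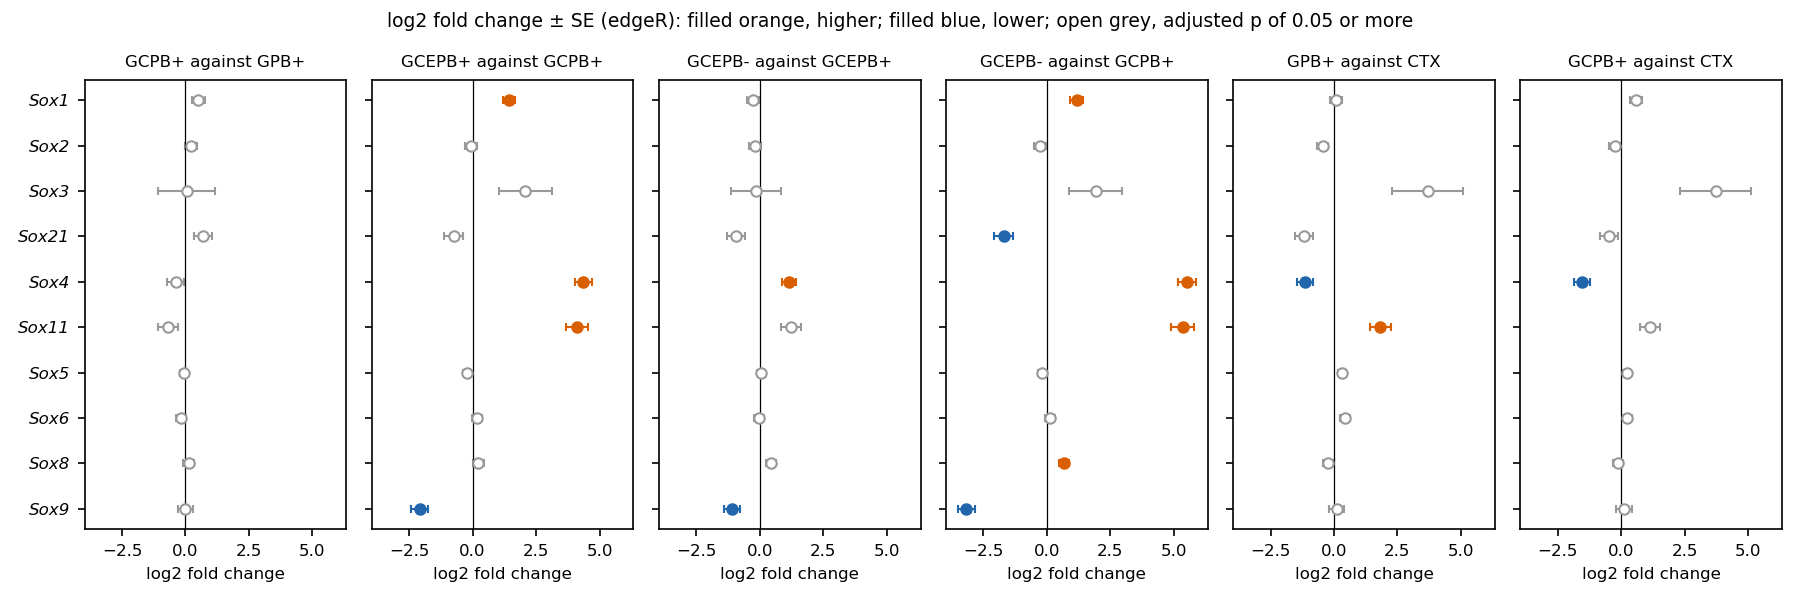
Log2 fold change ± SE of each Sox gene in 6 comparisons, with orange points higher, blue points lower and open points not past the edgeR adjusted p of 0.05. Sox4 and Sox11 rise by 4.36 and 4.12 and Sox9 falls by 2.09 in GCEPB+ against GCPB+, while GCPB+ against GPB+ holds no called member.

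All 10 members passed the count filter, Sox3 through the EGFR-positive groups alone, and the comparisons differed in how many passed. In GCPB+ against GPB+, which differ in CD133, 0 members passed at the adjusted threshold and 0 at an unadjusted p under 0.05, where 0.0307% of the 16302 tested genes passed in either direction; DESeq2 called 0 members as well. In GCEPB+ against GCPB+, which differ in EGFR, 3 members rose (Sox1, Sox4 and Sox11) against a background of 18.1% of all genes, and 1 fell (Sox9) against 18.0%. In GCEPB- against GCEPB+, which differ in PDGFRβ, 1 rose (Sox4) against 1.85% and 1 fell (Sox9) against 9.28%. In GCEPB- against GCPB+, which differ in both, 4 rose (Sox1, Sox4, Sox8 and Sox11) against 23.9% and 2 fell (Sox9 and Sox21) against 24.9%. Among 10 genes, counts this close to the background say little about the family. The median absolute log2 fold change of the members was 1.09 in GCEPB+ against GCPB+, beside 0.75 over all genes tested. That median falls between Sox21 (-0.75) and Sox1 (1.43), and Sox3, with few counts, lies on its upper side at 2.08. With Sox3 left out, the middle member is Sox21, whose absolute value of 0.75 equals the median over all genes. Members were also above all genes in GCEPB- against GCPB+. Members were below all genes in GCEPB- against GCEPB+ (0.35 beside 0.43), GCPB+ against GPB+ (0.19 beside 0.28) and GCPB+ against CTX (0.36 beside 0.39). The medians thus went either way by comparison, and whether the family differs from all genes was not tested.

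Against the cortex, GPB+ had 1 member higher (Sox11), where 4.04% of genes were higher, and 1 lower (Sox4), where 2.70% were lower. GCPB+ had 0 higher, where 4.18% of genes were higher, and 1 lower (Sox4), where 2.55% were lower. In the pairs that set an EGFR-positive group against GPB+ or CTX, the share of genes called in either direction was 37.2% for GCEPB+ against GPB+, 49.0% for GCEPB- against GPB+, 41.9% for GCEPB+ against CTX and 51.3% for GCEPB- against CTX. Members called there numbered 4, 6, 6 and 7 of 10 in the same order, with Sox1, Sox4 and Sox11 higher and Sox9 lower in each; both counts against CTX include Sox3. These pairs share libraries with the comparisons above and are not independent of them.

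**Figure D4:**
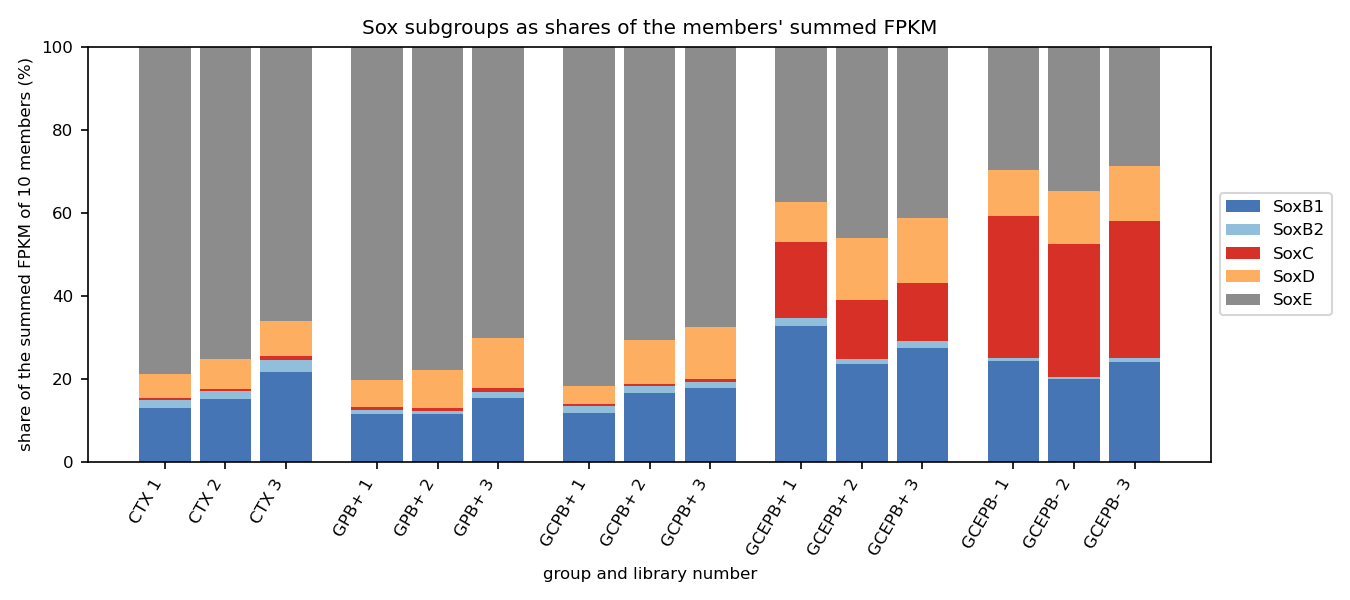
Share of each Sox subgroup in the summed FPKM of the 10 members, 1 bar per library. SoxC takes 0.568% on average in GCPB+, 15.5% in GCEPB+ and 33.1% in GCEPB-, and SoxE takes 73.3%, 41.6% and 30.9%.

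The composition of the Sox pool followed from these levels. Of the summed FPKM of the 10 members, SoxE made up 78.9%, 75.3% and 66.0% in CTX, 80.3%, 77.9% and 70.3% in GPB+ libraries and 81.7%, 70.6% and 67.5% in GCPB+. It made up 37.4%, 46.1% and 41.2% in GCEPB+, and 29.6%, 34.7% and 28.5% in GCEPB-. SoxC rose from between 0.445% and 0.993% in EGFR-negative libraries to between 13.9% and 18.4% in GCEPB+ and between 32.0% and 34.2% in GCEPB-. The SoxB1 share was 15.3% ± 3.12 in GCPB+, 27.9% ± 4.51 in GCEPB+ and 22.8% ± 2.46 in GCEPB-, and the GCEPB+ and GCEPB- libraries overlapped. The summed FPKM itself was 319.5 ± 139 in GCPB+, 224 ± 34.7 in GCEPB+ and 243 ± 27.1 in GCEPB-, with overlap between the groups. The shares are parts of a whole, and a fall of Sox9 raises the others by construction.

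Of the 9 other Sox genes in the table, 4 passed the count filter: Sox7, Sox10, Sox12 and Sox13. Sox14, Sox15, Sox17, Sox18 and Sox30 did not. Sox13 was at 9.94 CPM ± 1.75 in GCEPB-, lower than in GPB+ and CTX with edgeR adjusted p-values of 0.0414 and 0.0268. Against GCPB+ it had 0.0694. Sox12, the remaining SoxC gene, read 5.82, 9.92 and 4.92 CPM in GCPB+, 17.4, 20.8 and 8.59 in GCEPB+, and 21.3, 20.5 and 20.6 in GCEPB-, so GCEPB+ library 3 overlapped GCPB+. It rose from GCPB+ to GCEPB+ by a log2 fold change of 1.19 ± 0.36 with an edgeR adjusted p of 0.0156, a call that ended in 3 of 6 fits without a library (up to 0.0785). From GCPB+ to GCEPB- it rose by 1.60 ± 0.36 with 0.00143, in every fit without a library. Sox7, a SoxF gene best known from blood vessels, ran opposite, at 15.4 CPM ± 1.57 in CTX, 16.9 ± 2.94 in GPB+ and 9.31 ± 4.14 in GCPB+, then 1.22 ± 1.26 in GCEPB+ and 0.186 ± 0.0692 in GCEPB-. It fell by a log2 fold change of 2.93 ± 0.57 from GCPB+ to GCEPB+ with an edgeR adjusted p of 0.000693. The other SoxF genes, Sox17 and Sox18, were at or under 1.17 CPM in every library. The summed level of 10 endothelial markers was 0.442, 20.4 and 4.17 CPM in the GCPB+ libraries and 0.727, 42.0 and 13.5 in GCEPB+. No marker was called between them. Library 2 had both the highest sum and the highest Sox7 in GCPB+ and in GCEPB+ (13.4 and 2.67 CPM of Sox7). In the other groups the highest sum and the highest Sox7 fell in different libraries. The part of endothelial cells in the Sox7 levels was not tested.

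Sox2ot, the noncoding gene that spans Sox2, did not copy its pattern. It read 55.6, 74.5 and 64.7 CPM in CTX, 141, 115 and 120.3 in the GPB+ libraries, 77.2, 96.8 and 97.5 in those of GCPB+, 87.1, 87.3 and 124 in GCEPB+, and 148, 105 and 128 in GCEPB-. CTX was lowest and did not overlap any other group. GPB+ was higher than CTX by a log2 fold change of 0.95 ± 0.20, with an edgeR adjusted p of 0.00716, while Sox2 in that pair had -0.45 ± 0.23 with 0.284.

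Transcription factors described as partners of Sox proteins were counted as a list of 15, of which 14 were tested. From GCPB+ to GCEPB+, 7 rose and 2 fell, where 18.1% of all tested genes rose and 18.0% fell, with a median log2 fold change of 0.41 beside 0.11 over all genes. Chd7, a chromatin remodeller described as a Sox2 partner, rose from 53.2 CPM ± 6.71 to 197 ± 31.1, a log2 fold change of 1.89 ± 0.17 with an edgeR adjusted p of 3.74e-07, and Olig2, a regulator of oligodendrocyte fate, by 2.90 ± 0.59 with 0.000976. Hes5, a Notch target, fell by 2.85 ± 0.69 with an edgeR adjusted p of 0.00368, and its GCPB+ libraries ranged from 276 to 1939 CPM. From GCEPB+ to GCEPB-, 3 of the 14 rose (Chd7, Zeb1 and Nfib), where 1.85% of all genes rose, and 0 fell, where 9.28% fell, with Chd7 at a log2 fold change of 0.84 ± 0.16 and an edgeR adjusted p of 0.00199. Nfib lost its call in 4 of 6 fits without a library (up to 0.128).

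Genes described as Sox targets in neural cells formed a list of 22, of which 21 were tested. From GCPB+ to GCEPB+, 13 rose and 3 fell, beside the same 18.1% and 18.0% of all genes, with a median log2 fold change of 1.87 beside 0.11 over all genes; Egfr, on which the cells were sorted, is among the 13. Tubb3 and Dcx stand in the neuroblast list too, Fgfr3 in the astrocyte list, Pdgfra in the oligodendrocyte progenitor list, and Nfia and Nr2e1 in the partner list. Stmn1, a tubulin-binding protein described as a SoxC target, rose from 56.9 CPM ± 5.96 to 906 ± 246, by a log2 fold change of 3.99 ± 0.23 with an edgeR adjusted p of 1.05e-08. Tead2, a Hippo pathway transcription factor also described as a SoxC target, rose from 5.19 CPM ± 1.35 to 66.8 ± 20.6, by 3.68 ± 0.30 with 1.72e-07, and the Notch ligand Jag1 by 3.29 ± 0.28 with 2.63e-07. The 3 that fell, named after their values were seen, were Fgfr3, Mmd2 and Nr2e1. Mmd2, described as a target of Sox9 in glia, fell by 1.46 ± 0.14 with an edgeR adjusted p of 1.06e-06 and again from GCEPB+ to GCEPB- by 1.06 ± 0.14 with 8.37e-05. In that second comparison 2 of the 21 rose (Ezh2 and Stmn1) and 3 fell (Mmd2, Fgfr3 and Gli3), where 1.85% of all genes rose and 9.28% fell; leaving out a library ended the calls of Ezh2, Stmn1 and Gli3 in 4 or 5 of 6 cases.

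Markers of other cell types moved in the same comparisons, and their part in the Sox results was not tested. Of 15 tested neuroblast markers, 8 rose and 0 fell from GCPB+ to GCEPB+, where 18.1% of all tested genes rose and 18.0% fell. Their sum over 16 genes was 39.1 to 67.9 CPM in GCPB+ libraries, 196 to 286 in those of GCEPB+ and 526 to 709 in GCEPB-. None of the 16 was at 0 in the EGFR-positive groups. Cd24a, the gene of the antigen against which the V-SVZ cells were sorted, was at 0.970 CPM ± 0.286 in GCPB+, 16.4 ± 4.58 in GCEPB+ and 75.0 ± 18.8 in GCEPB-. All 25 tested cell cycle genes rose from GCPB+ to GCEPB+, with sums of 237 to 285 CPM and 3701 to 5188, and 7697 to 9289 in GCEPB-. All 14 astrocyte markers fell from GCPB+ to GCEPB+, beside the same 18.0% of all genes. Their sums were 77077 to 88782 CPM in GCPB+ libraries, 11965 to 19839 in those of GCEPB+ and 4374 to 4736 in GCEPB-. Sox4, Sox11 and Sox1 therefore changed beside rising neuroblast and cell cycle genes, and Sox9 beside falling astrocyte markers.

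Markers of other lineages were summed in the same way. The summed level of 12 mature oligodendrocyte markers was 1386 to 1925 CPM in GCPB+, 309, 1193 and 770.4 in the GCEPB+ libraries and 129 to 191 in GCEPB-, so GCEPB+ library 1 stood apart. Sox10, the SoxE gene of the oligodendrocyte lineage, was at 5.23, 2.54 and 0.305 CPM in GCPB+ and at 0, 0.679 and 0.207 in GCEPB+. In GCEPB- it was at 0, 0.330 and 0, near the floor. It was called lower there than in GCPB+ and CTX, with edgeR adjusted p-values of 0.0352 and 0.0463, although libraries overlapped in both pairs. Oligodendrocyte progenitor markers summed to 44.3 to 92.7 CPM in GCPB+ libraries, 71.7 to 90.8 in those of GCEPB+ and 117 to 148 in GCEPB-. Over the same 3 groups, the lowest and highest sums were 76.7 and 90.5, 47.4 and 78.5, and 16.7 and 32.4 for ependymal markers, 47.3 and 66.0, 21.2 and 25.2, and 7.99 and 24.0 for pericyte and mural markers, and 59.3 and 118, 35.4 and 82.8, and 9.05 and 29.5 for microglia markers. Between GPB+ and CTX, where Sox11 rose and Sox4 fell, 4.04% of all tested genes rose and 2.70% fell. Of 15 tested neuroblast markers, 6 rose and 1 fell there, with sums of 28.2 to 39.4 CPM in CTX and 45.8 to 48.9 in GPB+. Of 9 tested oligodendrocyte progenitor markers, 0 rose and 2 fell there (Olig1 and Olig2). From CTX to GCPB+, where Sox4 was also lower, 0 rose and 3 fell (Pdgfra, Olig1 and Olig2). In that comparison 4.18% of all tested genes rose and 2.55% fell. The progenitor markers summed to 225 to 297 CPM in CTX, 70.5 to 138 in GPB+ and 44.3 to 92.7 in GCPB+. Of 12 ependymal markers, 4 rose and 0 fell in either comparison, with sums of 24.3 to 34.5 CPM in CTX and 59.8 to 78.8 in GPB+.

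Genes whose pattern over the 15 libraries was most like a member were found by Pearson correlation of log2(CPM + 1) among 7485 genes with a mean of at least 20 CPM. The libraries fall into EGFR-positive and EGFR-negative sets, so a high value mostly states that a gene differs between those sets, and all values come from the same 15 libraries, which differ in depth. For Sox4 the closest were Cdk2ap1 at 0.987, Mthfd2 at 0.985 and Anp32b at 0.982, and for Sox11 they were Pold3 at 0.987, Haus1 at 0.987 and Nup210 at 0.985. For Sox9 they were Scara3 at 0.987, Cyp4f13 at 0.986 and Bmyc at 0.983, and for Sox1 Asf1b at 0.967. Sox2, which did not separate the sets, was closest to Ndufb6 at 0.901, Ndufs3 at 0.897 and Ndufv2 at 0.887, which encode subunits of respiratory complex I.

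The library number recurs in the levels of several members. Library 1 was the highest of its group in 4 of 5 groups for Sox1, Sox2, Sox21, Sox4, Sox11 and Sox9, and library 3 was the highest in 4 of 5 groups for Sox6. For Sox9 the EGFR-negative groups ran alike, with 1433, 1694 and 1932 CPM in the libraries numbered 1 and 840.0, 872 and 733 in those numbered 3. Library 1 also had the fewest genes with counts in every group, such as 17354 in GCPB+ against 17528 in library 2, which had fewer total counts. The part of this in the levels was not tested. What the number stands for was not given in the sources used here. The groups each hold every number, so it does not line up with a comparison between groups.

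**Figure D5:**
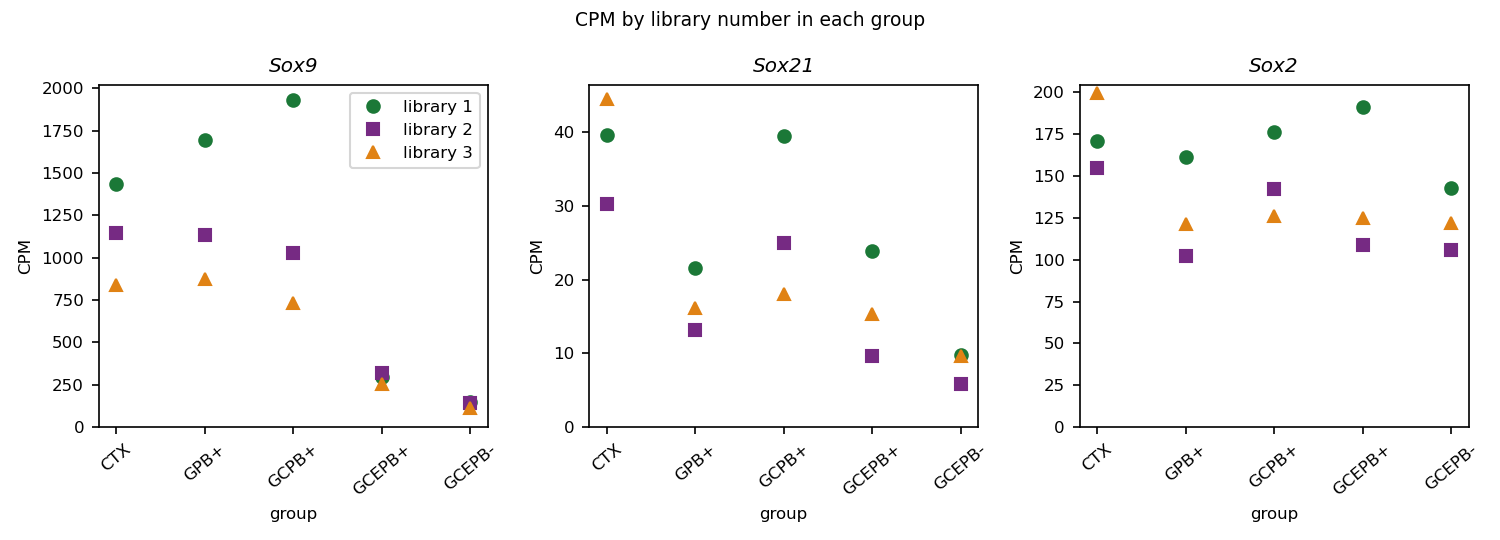
CPM of Sox9, Sox21 and Sox2 in each group by library number (circle 1, square 2, triangle 3). For Sox9, library 1 lies above libraries 2 and 3 in CTX, GPB+ and GCPB+ (1433, 1694 and 1932 CPM), and the EGFR-positive groups stay below all of them at 318 CPM or less.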

How the data were processed

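RNA of sorted cells was amplified from poly(A) tails with an ultra-low-input kit that does not mark strand and read from both ends over 100 bases, per the labels' protocols. TopHat2 2.1, cutadapt, HTSeq, Cufflinks and mm10 are listed in the submitters' processing notes, without saying which made which file; annotation, strand setting and how multiply mapped reads were handled are not given in the sources used here. The authors deposited raw counts per gene symbol and FPKM values, scaled by them to transcript length and library size. In the FPKM table the symbol and position columns carry each other's header. Gene positions come from that table on mm10, moved to counting from 1. Of 32763 count entries, 28 named no usable gene and were left out; they held 0.184% to 0.323% of a library's counts. A table of surface markers gave the groups.

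Counts were tested with the quasi-likelihood test of edgeR 4.0.16 (R 4.3.3; filterByExpr; TMM factors of 0.825 to 1.22) in a fit of 15 libraries and 5 groups without covariates, two-sided, with Benjamini-Hochberg adjustment over 16302 genes and a threshold of 0.05. CPM uses the TMM-normalised totals. The SE of a log2 fold change is its absolute value over the square root of the F statistic and is unreliable near the floor of 3 counts, which is 0.0893 to 0.241 CPM by library. The script was tested on simulated counts. FPKM was tested with limma 3.58.1 on log2(FPKM + 1), which understates changes of low genes, and DESeq2 1.42.0 was an alternative.

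The members, lists and tests were chosen with earlier results of these data known. The text names all Sox genes, up to 4 called genes of a list with the largest change, and up to 3 genes most like a member, with established symbols; some genes allowed by this rule were left out. Lists are described by counts and medians. Nothing in the labels says that the libraries of a group came from separate animals, so the p-values reflect spread between these samples only, which may be technical. Amplified reads without molecular identifiers are not independent molecules. No pair of replicates came within sampling noise (chi-square per gene 28.6 to 112). Library numbers recur in every group. Same-numbered libraries deviated together for GCPB+ against GPB+ (correlations across genes 0.220, 0.212 and 0.285), GCEPB+ against GCPB+ (0.271, 0.173 and 0.267) and GCPB+ against CTX (0.154, 0.108 and 0.231), and were taken as paired there from the data, not from a label.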

Additional observations from a re-analysis of the deposited data

How the results depend on the processing

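Of 637 alternative values for called log2 fold changes of members, 600 kept direction and call, 37 lost the call and none changed sign; of 717 for uncalled ones, 646 were alike, 27 passed the threshold and 44 changed sign. Counts of members per comparison stayed the same in 158 of 198 alternatives. The cause of a change was not tested, and leaving out a library also leaves a smaller group. In GCEPB+ against GCPB+, 5 members were higher instead of 3 by limma on unfiltered FPKM (Sox3 and Sox6 added), and 2 lower instead of 1 with the replicate block and without the first library of both EGFR-positive groups (Sox21 added). In GCEPB- against GCEPB+, 2 were higher instead of 1 with no count filter, a filter of 5 CPM, DESeq2, those 2 groups alone, limma on FPKM at either pseudocount or unfiltered, and the replicate block (Sox11 added); 0 were lower instead of 1 by the 3 limma fits on FPKM and without the first library of both EGFR-positive groups, and 2 with the replicate block. In GPB+ against CTX, 2 were lower instead of 1 with a filter of 5 CPM, DESeq2 and the replicate block (Sox21 added), and 0 were higher and 0 lower by limma on unfiltered FPKM. In GCPB+ against CTX, 1 was higher instead of 0 with DESeq2 and the replicate block (Sox11), and 0 lower instead of 1 with those 2 groups alone and by limma on unfiltered FPKM. The block changed no other call of a member in these 6 comparisons. It is a hint from the data where the library numbers were not taken as pairing.

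Leaving out each library in turn gave 1 to 2 members lower in GCEPB+ against GCPB+, 0 to 2 higher and 0 to 1 lower in GCEPB- against GCEPB+, and 0 to 1 higher and 0 to 1 lower in GPB+ against CTX. Signs of uncalled values changed in these fits, with log2 ranges of -0.39 to 0.02 (Sox1), -0.35 to 0.08 (Sox2), -0.48 to 0.18 (Sox3) and -0.15 to 0.07 (Sox6) in GCEPB- against GCEPB+, and -0.33 to 0.10 (Sox2) and -0.05 to 0.29 (Sox6) in GCEPB+ against GCPB+. In GCPB+ against GPB+ they were -1.11 to 1.89 (Sox3), -0.11 to 0.02 (Sox5), -0.31 to 0.03 (Sox6), -0.06 to 0.24 (Sox8) and -0.49 to 0.30 (Sox9). They were -0.08 to 0.26 (Sox6) in GCEPB- against GCPB+, -0.05 to 0.17 (Sox1) and -0.18 to 0.33 (Sox9) in GPB+ against CTX, and -0.30 to 0.04 (Sox8) and -0.37 to 0.38 (Sox9) in GCPB+ against CTX. By limma on FPKM at every setting, Sox2 had 0.20 in GCEPB+ against GCPB+ and 0.04 in GCEPB- against GCPB+, Sox5 0.04 in the latter, and Sox9 -0.09 in GCPB+ against CTX. Sox9 had 0.02 in GCPB+ against GPB+ by RLE scaling and DESeq2. Sox3 had 0.50 in GCEPB- against GCEPB+ without the first library of both EGFR-positive groups.

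Over all genes, counts in GCPB+ against GPB+ were 4 higher and 1 lower, and 24 and 15 by DESeq2, 0 to 2 in all other settings that moved them. Genes higher in GCEPB+ against GCPB+ were 2956, and 4572 or 4522 by limma on FPKM + 1 with and without filter. Those higher in GCEPB- against GCEPB+ were 301, between 187 and 689 in other settings and 120 to 406 without a library. Those lower in GPB+ against CTX were 440, 758 by DESeq2, 684 by limma and 217 to 291 without a library, and those higher were 658 and 368 to 603. In GCPB+ against CTX, 681 were higher and 415 lower, 1055 and 697 by DESeq2, 384 to 617 and 192 to 420 without a library, with 702 lower in those 2 groups alone and 665 by limma. Limma on FPKM moved the median of all genes to between 0.25 and 0.34 in comparisons of EGFR-positive with GCPB+ cells when low values were filtered. Depth limits Sox3 in EGFR-negative libraries and Sox10 and Sox7 in EGFR-positive ones, where several lie at or near the floor. Groups of 3 libraries limit all tests.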
